A study of Mus musculus with 10 samples.

Results

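The genes described here are the nuclear-encoded subunits of the mitochondrial respiratory chain, a set of 41 genes among the 55291 in the expression table. They were taken from a list of names: 17 subunits of complex I, 4 of complex II, 6 of complex III, 11 of complex IV and 3 of complex V, with Ndufa4 counted under complex IV. No measured value entered the list, but it was drawn up with earlier results of these libraries known. The libraries were made from submandibular glands of C57BL/6J mice, labelled female and 8 weeks old, at day 7 after surgery. In the ligated group, sutures closed the right gland's duct near and far from the gland, and in the sham group the skin was opened and the gland dissected with the duct left untied. The labels name no genetic change and no drug other than the anaesthetic of the operation, which both groups received. There were 5 libraries per group, numbered as in the sample titles, from 5 mice per group.

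The respiratory chain passes electrons from NADH (through complex I) and from succinate (through complex II) to coenzyme Q, then through complex III and cytochrome c to complex IV, where oxygen is reduced to water. Complexes I, III and IV pump protons, and complex V uses the resulting gradient to make ATP. Most subunits are encoded in the nucleus and a few core ones in mitochondrial DNA. In salivary glands the striated ducts are known for dense mitochondria, which power ion reabsorption. Several complex IV subunits come in pairs, a ubiquitous form and a form restricted to particular tissues: Cox6a1 and Cox6a2, Cox7a2 and Cox7a1, and Cox8a and Cox8b. The restricted forms are those of heart and skeletal muscle, and Cox7a1 and Cox8b are also abundant in brown fat.

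Promoters of paired forms are shown because the results turn on the contrast between such forms. Of the members, 28 of 41 had a promoter in the RefSeq table of GRCm38.p6, which holds 250 bases before and 50 after each gene's start. Cox6a2 was not among these 28, so its pair is not shown. Below are the promoters of the ubiquitous Cox7a2 (chr9:79759804-79760103, minus strand) and its restricted partner Cox7a1 (chr7:30183921-30184220, plus strand), and of the ubiquitous Cox8a (chr19:7217567-7217866, minus strand) and its restricted partner Cox8b (chr7:140900397-140900696, minus strand). Capitals mark matches to the ETS motif CCGGAAG on either strand, which is the motif bound by GABP, a regulator of many respiratory chain genes.
Cox7a2: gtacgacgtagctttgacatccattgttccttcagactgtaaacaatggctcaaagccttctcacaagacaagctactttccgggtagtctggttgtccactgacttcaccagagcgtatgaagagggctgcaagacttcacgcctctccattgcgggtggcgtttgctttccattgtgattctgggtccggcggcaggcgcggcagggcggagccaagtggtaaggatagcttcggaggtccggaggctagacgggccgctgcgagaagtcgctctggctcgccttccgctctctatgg
Cox7a1: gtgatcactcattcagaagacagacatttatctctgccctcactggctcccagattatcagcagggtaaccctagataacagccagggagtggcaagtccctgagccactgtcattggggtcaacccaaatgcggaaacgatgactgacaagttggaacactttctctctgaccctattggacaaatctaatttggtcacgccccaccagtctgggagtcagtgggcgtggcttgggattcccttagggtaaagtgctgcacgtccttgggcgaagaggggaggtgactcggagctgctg
Cox8a: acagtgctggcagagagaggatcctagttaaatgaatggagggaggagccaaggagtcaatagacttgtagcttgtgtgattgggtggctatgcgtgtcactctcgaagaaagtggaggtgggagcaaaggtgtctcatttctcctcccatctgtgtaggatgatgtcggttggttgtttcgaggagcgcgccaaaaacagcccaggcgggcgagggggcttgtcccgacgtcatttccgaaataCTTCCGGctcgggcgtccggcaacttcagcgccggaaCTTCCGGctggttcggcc
Cox8b: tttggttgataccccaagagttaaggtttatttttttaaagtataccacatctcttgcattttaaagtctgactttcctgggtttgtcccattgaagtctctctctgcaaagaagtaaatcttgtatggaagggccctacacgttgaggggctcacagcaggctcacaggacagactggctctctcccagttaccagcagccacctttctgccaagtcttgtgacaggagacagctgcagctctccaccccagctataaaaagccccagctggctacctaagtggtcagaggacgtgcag
The ubiquitous forms held more CG dinucleotides in this window than their restricted partners, with 20 for Cox7a2 against 7 for Cox7a1, and 19 for Cox8a against 2 for Cox8b. Cox8a held 2 ETS matches and the other 3 held 0.

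Over the 28 members with a promoter, the median count of CG dinucleotides was 22, with a range of 5 to 39, against a median of 7 over all promoters in the table. The motif of NRF1, another regulator of respiratory chain genes, was searched as GCGCA, 1 free base and GCGC on both strands and was present in 7 of the 28 (25.0%), against 5.19% of all 27025 genes. The ETS motif was present in 6 of the 28 (21.4%), against 9.93% of all genes. The YY1 motif AAGATGGCG was present in 2 of the 28 (7.14%), against 1.64% of all genes. The muscle motif of MEF2, searched as CTA, 4 free bases and TAG, was present in 1 of the 28 (3.57%), against 4.23% of all genes. The ETS motif ends and the YY1 motif begins with the letters AAG, so that matches to both can overlap. A match is a run of letters, and binding was not measured. The NRF1, ETS and YY1 motifs each contain a CG, and the shares of all genes were not matched for CG count. Whether the members differ beyond that count was not tested.

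Levels are given in the FPKM that the authors deposited, which relate the fragments of a gene to its length and to the size of the library. The libraries held between 12105754 (sham 4) and 17305629 (sham 3) reads assigned to genes, as worked out from the values, so that 3 reads in a gene of 1 kilobase amounted to 0.173 to 0.248 FPKM. The FPKM summed to 504092 to 604875 in the sham and to 337121 to 454370 in the ligated libraries. The summed level of 8 acinar markers was 137833 to 269625 FPKM in sham and 11959 to 61159 FPKM in ligated libraries. The summed level of 5 parotid markers ranged from 4655 to 45856 FPKM over all libraries, and Amy1 was above 1000 FPKM in sham 1 and ligated 2, 3 and 5. The sum does not track Amy1, since in sham 2 Car6 made up 18095 of 18344 FPKM with Amy1 at 4.45 FPKM. Smr3a, counted among the acinar markers, was also above 1000 FPKM in sham 1 and ligated 2, 3 and 5, and at most 11.2 FPKM in the others. The 7 lymph node markers summed to at least 144.5 FPKM in sham 1 and ligated 1, 2 and 3 and to at most 3.77 FPKM in the other libraries. All 10 libraries, labelled female, held at least 0.770 FPKM of each of 4 Y-linked genes and at most 0.0267 FPKM of Xist, which goes against the label. Whether the replicates share a surgery or library batch is not stated.

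In the sham gland, the subunits spanned a wide range of levels. The highest was Cox6a1, a ubiquitous regulatory subunit of complex IV, at 381 ± 43.8 FPKM (SD, n = 5), followed by Cox8a, a small subunit of the same complex, at 308 ± 56.8 FPKM, and the catalytic beta and alpha subunits of ATP synthase, Atp5b at 261 ± 19.7 FPKM and Atp5a1 at 213 ± 15.9 FPKM. Neighbours in that order overlapped in their sham libraries. Next, and below all of these in every sham library, was Cox4i1, a structural subunit of complex IV, at 130 ± 19.2 FPKM. The lowest ubiquitous members were Ndufb5, an accessory subunit of complex I, at 7.10 ± 1.20 FPKM, and Ndufs1, the largest iron-sulfur subunit of complex I, at 7.62 ± 1.32 FPKM. Below these lay only Cox4i2, the form of Cox4 known from lung and oxygen-sensing cells, at 1.44 ± 0.969 FPKM, and Cox6a2 at 0.654 ± 0.923 FPKM. Leaving out Cox4i2 and Cox6a2, the highest sham library exceeded the lowest by 1.12-fold (Sdhb) to 3.08-fold (Ndufa2). Of the 41 members, 19 overlap another annotated gene, and reads from such a gene cannot be told apart from theirs where strand was not used in counting.

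**Figure D1:**
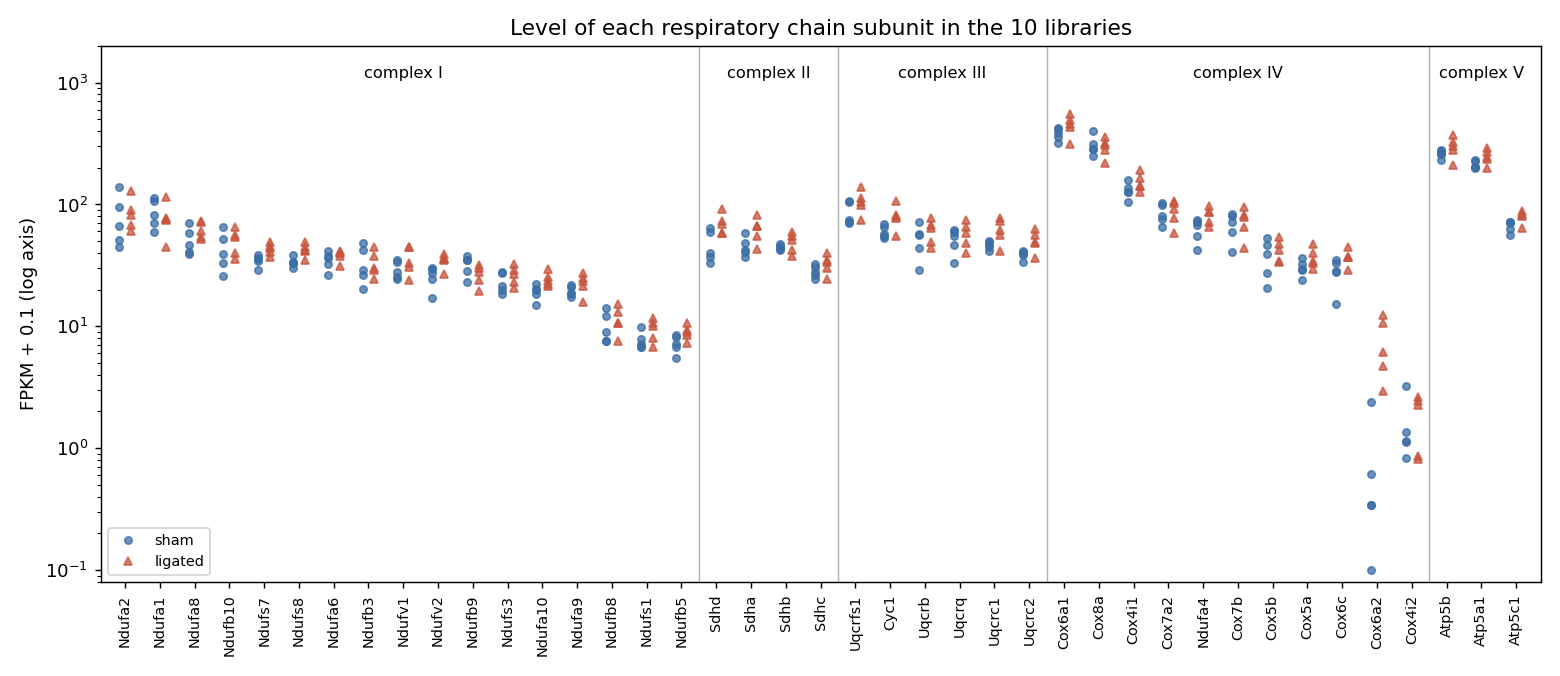
FPKM plus 0.1, on a log axis, of each of the 41 subunits in the 5 sham libraries (circles) and the 5 ligated libraries (triangles), grouped by complex and ordered by mean level. The groups overlap for every subunit except Cox6a2, which lies at 0 to 2.27 FPKM in sham and 2.82 to 12.3 FPKM in ligated glands.

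Most subunits lay slightly higher in ligated than in sham glands in the values as deposited and lower after median-ratio scaling, and under both they lay below the typical gene. All 41 members passed the filter of at least 1 FPKM in 5 of 10 libraries and were among the 11856 genes tested. The log2 fold change (ligated minus sham, on log2(FPKM + 1)) was above 0 for 38 members and below 0 for 3, and its median was 0.25, against 0.53 over all genes tested. By limma with Benjamini-Hochberg adjustment over all genes tested, 1 member (Cox6a2) was higher under both thresholds, an adjusted p under 0.05 together with a change of at least 1 on the log2 scale, against 17.1% of all genes, and 0 were lower, against 1.16%. Without the fold threshold 6 of 41 (14.6%) were higher, against 56.8% of all genes, and 0 were lower, against 3.35%. At an unadjusted p under 0.05, 10 members were higher, against 62.1% of all genes, and 0 were lower, against 4.08%. Without the 4 libraries with parotid transcripts 2 members were higher at an adjusted p under 0.05, and without the 4 with lymph node transcripts 3 were. Leaving out 1 library at a time gave 1 (without sham 2, sham 3 or ligated 4) to 8 (without ligated 2). Ligated and sham libraries were fully separate for 1 member (Cox6a2, ligated above), against 30.2% of all genes, and for 0 members with ligated below, against 1.12%. Cox6a2 was under 1 FPKM in sham 2 to 5 and passed the filter through the ligated libraries, which favours such a separation. With no filter its adjusted p was 0.00378 by limma.

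The direction depended on how libraries were scaled to each other. After median-ratio scaling, which sets the typical gene of each library to the same level, the median of all genes moved from 0.53 to 0.01. The median of the members moved from 0.25 to -0.39, with 1 member above 0 (Cox6a2) and 40 below. Under this scaling 1 member was higher at an adjusted p under 0.05, against 15% of all genes, and 5 were lower, against 16.1%. With the fold threshold added 1 was higher, against 7.09%, and 0 were lower, against 3.97%. The 5 lower members were Ndufb9 (log2 fold change -0.88, adjusted p = 0.00504), Ndufa1 (-0.82, adjusted p = 0.0366), Cox8a (-0.70, adjusted p = 0.0271), Ndufa6 (-0.50, adjusted p = 0.0215) and Atp5c1 (-0.39, adjusted p = 0.0418). Under both scalings the members as a group thus lay below the typical gene, by 0.28 as deposited and by 0.39 after scaling, whereas without a filter on low values, as deposited, they lay 0.0714 above it. When all libraries were given equal sums, 37 of the 41 members were higher at an adjusted p under 0.05, against 83.7% of all genes, and the median of the members was 0.78 against 0.97 for all genes. A change of all members in absolute amount per gland cannot be read from these values, and in RNA from whole glands fewer cells of a type and less RNA per cell cannot be told apart.

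**Figure D2:**
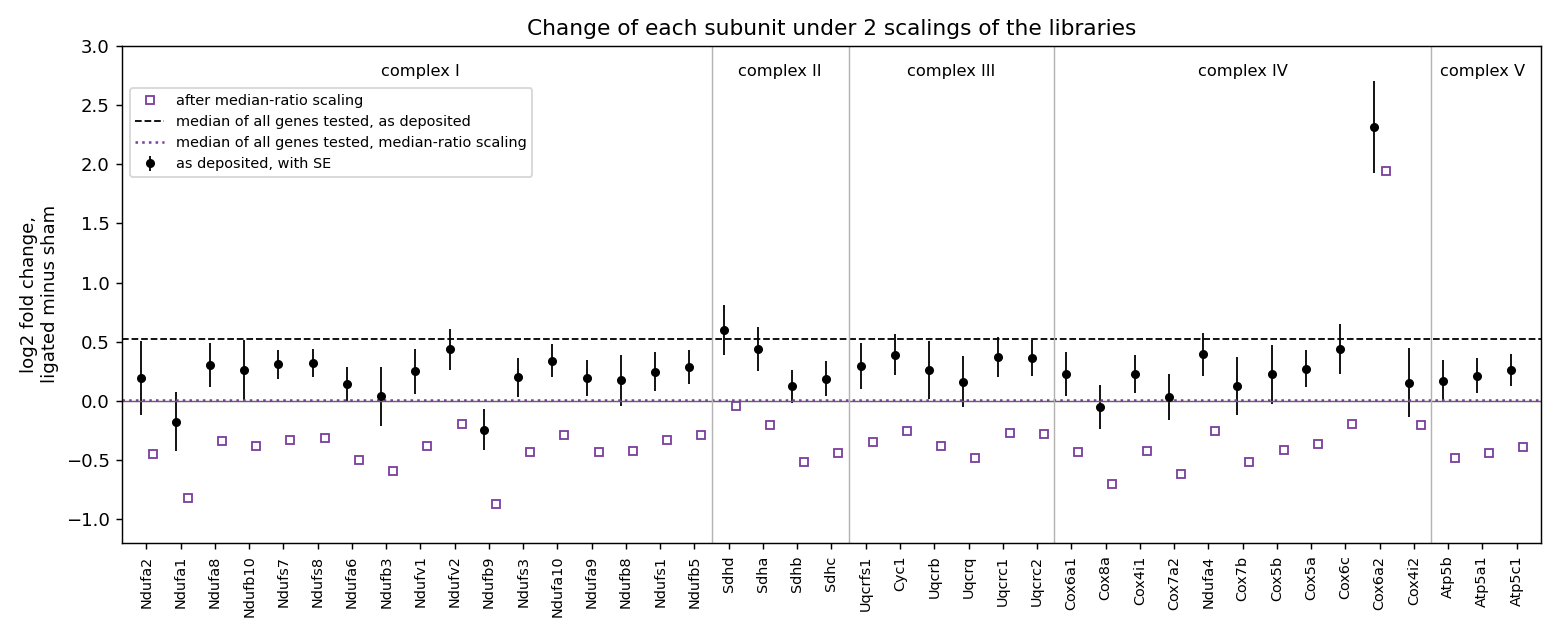
Log2 fold change of each subunit (ligated minus sham) as deposited, with its standard error (filled circles), and after median-ratio scaling (open squares). Dashed and dotted lines mark the median of all genes tested, 0.53 as deposited and 0.01 after scaling, and apart from Cox6a2 nearly all subunits lie below the line of their own scaling.

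Among the 17 complex I subunits the median log2 fold change was 0.25. At an adjusted p under 0.05, 4 (23.5%) were higher as deposited, against 56.8% of all genes. After median-ratio scaling 3 were lower, against 16.1% of all genes. The largest value was that of Ndufv2, an iron-sulfur subunit of the NADH-oxidising module. Ndufv2 was at 24.4, 29.8, 16.9, 27.5 and 29.7 FPKM in sham 1 to 5 and at 36.5, 26.7, 35.0, 39.3 and 35.8 FPKM in ligated 1 to 5. All ligated libraries except ligated 2 lay above every sham library. Its log2 fold change was 0.44 ± 0.17 (SE, adjusted p = 0.0478 by limma), and -0.20 after median-ratio scaling. Ndufs7 and Ndufs8, the core subunits that hold the last iron-sulfur clusters before coenzyme Q, were at log2 fold changes of 0.31 ± 0.12 (adjusted p = 0.0472) and 0.32 ± 0.12 (adjusted p = 0.0414) as deposited, and at -0.33 and -0.32 after scaling. Ndufa10, an accessory subunit, was at 0.34 ± 0.14 (adjusted p = 0.0486), and at -0.28 after scaling. None of these 4 passed the test under the scaled values.

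The lowest value of complex I was that of Ndufb9, an accessory subunit of the membrane arm. Ndufb9 was at 28.3, 34.6, 23.0, 37.7 and 35.1 FPKM in sham 1 to 5 and at 29.9, 19.5, 24.1, 31.9 and 27.7 FPKM in ligated 1 to 5, and the groups overlapped. Its log2 fold change was -0.24 ± 0.17 (adjusted p = 0.235 by limma) as deposited and -0.88 (adjusted p = 0.00504) after scaling, with adjusted p of 0.00504 to 0.855 over all alternatives. Ndufa1, a small accessory subunit, had the next lowest value. Ndufa1 was at 70.9, 82.0, 59.4, 113 and 106 FPKM in sham and at 114, 44.9, 74.1, 77.1 and 76.0 FPKM in ligated libraries. Ligated 1 held the most Ndufa1 of all 10 libraries and ligated 2 the least, and the log2 fold change was -0.18 ± 0.25 (adjusted p = 0.548 by limma).

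Complex II, which links the citrate cycle to the chain as succinate dehydrogenase, had a median log2 fold change of 0.31 over its 4 subunits. Sdhd, a membrane anchor subunit, had the largest value of all members apart from Cox6a2. Sdhd was at 37.2, 39.7, 33.0, 64.4 and 58.8 FPKM in sham 1 to 5 and at 72.4, 57.7, 58.4, 91.5 and 68.9 FPKM in ligated 1 to 5. Ligated 2 and 3 lay below sham 4 and 5, and the other 3 ligated libraries lay above all sham libraries. Its log2 fold change was 0.60 ± 0.21 (adjusted p = 0.0305 by limma) as deposited and -0.04 (adjusted p = 0.891) after median-ratio scaling, with adjusted p of 0.00124 to 0.987 over all alternatives. Sdhb, the iron-sulfur subunit, had the smallest value of the complex and the tightest sham spread of the members. Sdhb was at 42.5, 42.8, 47.5, 44.5 and 45.1 FPKM in sham and at 55.3, 37.5, 50.8, 59.8 and 42.3 FPKM in ligated libraries, where 3 of 5 lay above and 2 below the sham range (log2 fold change 0.12 ± 0.14, adjusted p = 0.46 by limma).

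Complex III, which passes electrons from coenzyme Q to cytochrome c, had a median of 0.33 over 6 subunits. At an adjusted p under 0.05, 0 passed the test, where 56.8% of all genes were higher and 3.35% lower. At an unadjusted p under 0.05, 3 were higher, against 62.1% of all genes, and 0 were lower, against 4.08%. Cyc1, the cytochrome c1 haem subunit, had the largest value. Cyc1 was at 52.7, 55.1, 57.0, 65.4 and 69.6 FPKM in sham 1 to 5 and at 82.6, 55.2, 76.8, 107 and 78.6 FPKM in ligated 1 to 5. All ligated libraries except ligated 2 lay above the sham range, and the log2 fold change was 0.39 ± 0.17 (adjusted p = 0.0707 by limma). Uqcrq, a small accessory subunit, had the smallest value, at 51.0 ± 11.8 FPKM (SD, n = 5) in sham libraries and at 57.2 ± 13.8 FPKM in ligated ones (log2 fold change 0.16 ± 0.22, adjusted p = 0.517 by limma). After median-ratio scaling Cyc1 was at -0.26 and Uqcrq at -0.48, and neither passed the test.

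Among the 3 subunits of complex V the median was 0.21 and 0 passed the test as deposited (0 also at an unadjusted p under 0.05). Of all genes 56.8% were higher and 3.35% lower by that test. Atp5c1, the central stalk subunit that turns inside the catalytic head, was at 70.1, 62.5, 55.5, 71.2 and 71.1 FPKM in sham and at 83.3, 63.7, 81.6, 88.5 and 80.0 FPKM in ligated libraries. All ligated libraries except ligated 2 lay above the sham range, with a log2 fold change of 0.26 ± 0.13 (adjusted p = 0.11 by limma) as deposited and -0.39 (adjusted p = 0.0418) after scaling, with adjusted p of 0.00169 to 0.214 over all alternatives. Atp5b was at 261 ± 19.7 FPKM (SD, n = 5) in sham libraries and at 298 ± 58.4 FPKM in ligated ones (0.17 ± 0.17, adjusted p = 0.394). Ligated 2 was the lowest ligated library for Ndufv2, Ndufb9, Ndufa1, Sdhd, Sdhb, Cyc1 and Atp5c1 alike.

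Complex IV, the oxygen-consuming end of the chain, had a median of 0.22 over 11 subunits and held the 1 member that passed both thresholds. Cox6a2 (7:128205435-128206387 in GENCODE M21 on GRCm38, minus strand) was at 2.27, 0.242, 0.510, 0.243 and 0 FPKM in sham 1 to 5 and at 2.82, 10.5, 4.61, 12.3 and 6.11 FPKM in ligated 1 to 5. These values rest on 20, 2, 6, 2 and 0 reads in sham and on 27, 92, 42, 120 and 55 reads in ligated libraries. Every ligated library lay above every sham library, with sham 1 just under ligated 1, and the means were 0.654 ± 0.923 and 7.26 ± 4.00 FPKM (SD, n = 5). The log2 fold change was 2.31 ± 0.39 (adjusted p = 0.00107 by limma) as deposited and 1.95 (adjusted p = 0.00364) after median-ratio scaling, and the adjusted p ran from 6.76e-05 to 0.00992 over the alternatives that tested the gene. Cox6a2 shares 70 exonic bases with Itgad on the opposite strand, and Itgad was at most 0.134 FPKM in any library.

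None of the other 10 members of complex IV passed the test as deposited. Cox8a was at 251.9, 283, 286, 401 and 316 FPKM in sham 1 to 5 and at 322, 217, 280, 357 and 310 FPKM in ligated 1 to 5, with overlapping groups (log2 fold change -0.05 ± 0.19, adjusted p = 0.819 by limma). After median-ratio scaling it was lower by the test (-0.70, adjusted p = 0.0271 by limma), and the adjusted p ran from 0.0271 to 0.889 over all alternatives. Cox6a1, the partner of Cox6a2, was at 381 ± 43.8 FPKM (SD, n = 5) in sham libraries and at 451 ± 88.5 FPKM in ligated ones (0.22 ± 0.19, adjusted p = 0.305). Cox7a2 was at 84.6 ± 15.5 and 87.3 ± 19.8 FPKM (0.03 ± 0.19, adjusted p = 0.89). Ndufa4, a subunit first assigned to complex I, was at 62.2 ± 13.5 and 81.2 ± 12.6 FPKM (0.39 ± 0.18, adjusted p = 0.0799).

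Cox6a2 and its like were set against their ubiquitous partners within each library, where the scaling between libraries cancels apart from an added 0.1 FPKM. That offset weighs most where a gene is near 0. Besides Cox6a2, these restricted forms were Cox4i2 among the members and Cox7a1, Cox8b and Ndufa4l2 outside them. Each of the 5 pairs was compared as the log2 ratio of FPKM plus 0.1 with a two-sided exact permutation test, adjusted by Benjamini-Hochberg over the 5 pairs, where the smallest possible p is 0.00794. The ratio was higher in ligated glands for Cox8b over Cox8a, Ndufa4l2 over Ndufa4 and Cox6a2 over Cox6a1. It missed the threshold for Cox7a1 over Cox7a2 and for Cox4i2 over Cox4i1. Without the libraries with parotid or lymph node transcripts these 3 ratios differed by 1.76 to 5.71 in the same direction, at an adjusted p of 0.167 by exact permutation, where 4 sham and 2 ligated libraries cannot reach the threshold. No pair shared a run of 50 bases between its transcripts.

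Cox8b was at 1.93, 0.915, 1.28, 0.918 and 0.888 FPKM in sham 1 to 5 and at 30.0, 12.3, 63.2, 123 and 13.8 FPKM in ligated 1 to 5. It amounted to 0.229% to 0.767% of the Cox8a level in sham and to 4.47% to 34.6% in ligated glands, with no overlap. The log2 ratio was higher by 4.80 ± 0.64 (SE, exact permutation p = 0.00794, adjusted p = 0.0198), and higher in 5 of 5 ligated libraries than in any sham library. Across all genes the log2 fold change of Cox8b itself was 4.00 ± 0.54 (adjusted p = 0.000361 by limma).

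Cox6a2 amounted to between 0% (sham 5) and 0.713% (sham 1) of the Cox6a1 level in sham glands, and to 0.568%, 3.33%, 1.06%, 2.23% and 1.34% in ligated 1 to 5. Sham 1 lay above ligated 1, and the other 4 sham libraries lay below every ligated one. The log2 ratio was higher by 3.64 ± 0.91 (exact permutation p = 0.0159, adjusted p = 0.0265). In sham 5, with Cox6a2 at 0, the log2 ratio of -12.05 rests on the added 0.1 FPKM. Over all alternatives, offsets of 0.01 and 1 FPKM among them, the difference ran from 2.09 to 4.57. The adjusted p moved to 0.0529 when sham 2, 3, 4 or 5 or ligated 3, 4 or 5 was left out, with differences of 3.06 to 3.75 in those cases.

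Ndufa4l2, a paralog of Ndufa4 known from hypoxic cells and pericytes, was at 1.27, 0.451, 1.16, 1.96 and 1.61 FPKM in sham and at 4.42, 7.00, 4.02, 8.35 and 9.03 FPKM in ligated libraries, with no overlap. Its log2 ratio to Ndufa4 was higher by 1.91 ± 0.41 (exact permutation p = 0.00794, adjusted p = 0.0198). The gene overlaps Shmt2 on the opposite strand.

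Cox7a1 was at 0.289, 12.2, 3.13, 10.7 and 10.2 FPKM in sham 1 to 5 and at 19.7, 4.34, 20.1, 37.4 and 10.9 FPKM in ligated 1 to 5. Sham 2, 4 and 5 held more of it than ligated 2, and the groups overlapped through ligated 2 and 5. The log2 ratio to Cox7a2 differed by 1.72 ± 0.94 (exact permutation p = 0.0873, adjusted p = 0.109). Without ligated 2 it differed by 2.02 (exact permutation, adjusted p = 0.0397), and without sham 1 by 0.93. Cox4i2 was at 3.14, 1.25, 0.733, 1.05 and 1.01 FPKM in sham and at 2.35, 2.55, 2.18, 0.708 and 0.766 FPKM in ligated libraries. It rested on 8 to 32 reads per library. Its log2 ratio to Cox4i1 differed by -0.00 ± 0.55 (exact permutation p = 1, adjusted p = 1).

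**Figure D3:**
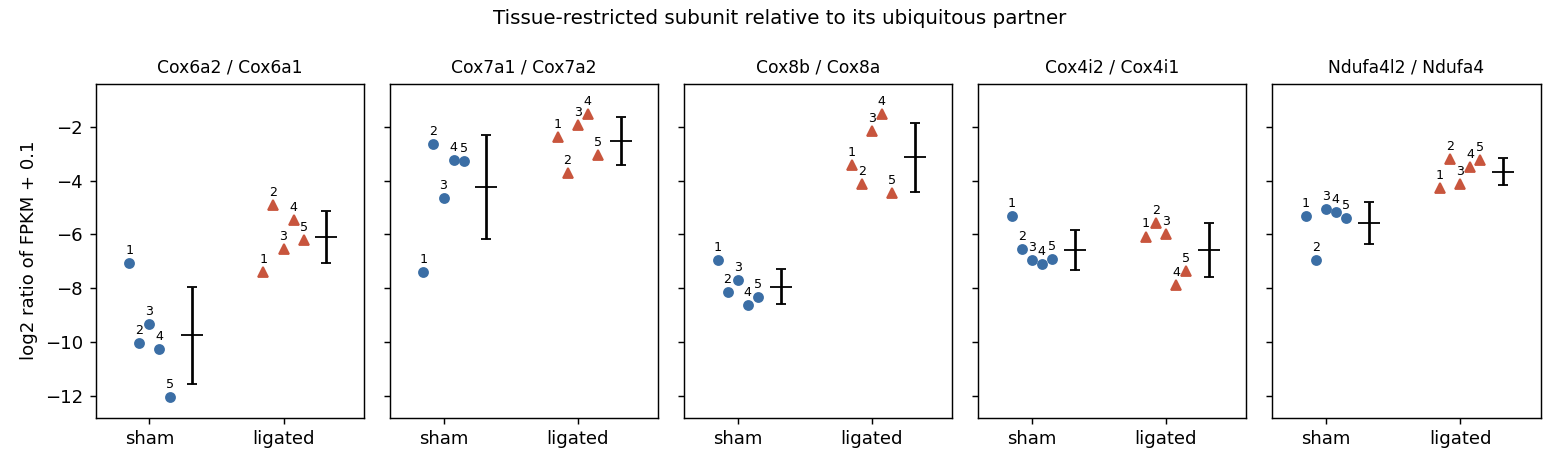
Log2 ratio, within each library, of a tissue-restricted subunit to its ubiquitous partner (FPKM plus 0.1 in both), for 5 pairs. Points are libraries with their numbers, and bars give the mean and SD of each group. Cox8b/Cox8a and Ndufa4l2/Ndufa4 separate the groups, while Cox6a2/Cox6a1 overlaps through sham 1 and ligated 1.

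Markers of other tissues differed between the same groups. The 16 skeletal muscle markers summed to 1.95 to 4.48 FPKM in sham libraries and to 39.5, 568, 267, 874 and 419 FPKM in ligated 1 to 5. Of the 16, 14 were higher in every ligated than in every sham library. This held for 10 of the 10 that passed the filter, against 30.2% of all genes tested. Apart from Acta1 and Mylpf, those 10 were under 1 FPKM in every sham library. They could pass the filter only with at least 1 FPKM in every ligated library, which fixed their separation in advance. The comparison with all genes is therefore no test for them. At 0 in all sham libraries were 5 of the 16, and 1 was at 0 in all ligated ones. Acta1, the actin of skeletal muscle fibres, was at 2.05 ± 0.679 FPKM in sham and at 14.9, 280, 122, 383 and 179 FPKM in ligated 1 to 5. The 5 ligated libraries had the same order for Cox6a2 and for the muscle sum, lowest in ligated 1, then 3, 5, 2 and 4. The 5 sham libraries did not share this order beyond sham 1, which was highest for both.

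The 5 brown adipocyte markers summed to 0.234 to 0.652 FPKM in sham and to 47.7, 2.17, 156, 206 and 13.7 FPKM in ligated 1 to 5. Of the 5, 2 were higher in every ligated than in every sham library, and 0 passed the filter. Ucp1 and Cidea made up most of the sum in ligated 3 and 4. There Elovl3 was at 0.793 and 0.495 FPKM, and Cpt1b at 0 and 0.0414 FPKM. Ucp1, the uncoupling protein that defines brown fat, was at 0 in all sham libraries and at 13.2, 0, 95.5, 120 and 5.40 FPKM in ligated 1 to 5. Cox8b had the same order as this sum in the ligated libraries, lowest in ligated 2, then 5, 1, 3 and 4, and in ligated 2, with Ucp1 at 0, it was still at 12.3 FPKM. Within the ligated group Cox7a1 likewise was lowest in ligated 2 and highest in ligated 4. Sham 2, 4 and 5, with Ucp1 at 0, held 12.2, 10.7 and 10.2 FPKM of Cox7a1, near the 10.9 FPKM of ligated 5. The 7 white adipocyte markers summed to 1.20 to 19.2 FPKM in sham and 240.2 to 907 FPKM in ligated libraries.

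The 8 pericyte and vascular mural markers summed to 27.9 to 51.5 FPKM in sham and 78.1 to 148 FPKM in ligated libraries. Of the 7 that passed the filter, 5 were higher in every ligated than in every sham library, against 30.2% of all genes tested. For Cspg4, among these 5, the filter fixed this outcome. It was at most 0.897 FPKM in sham libraries and passed only through the ligated ones. Rgs5, a pericyte gene, was at 8.53 ± 5.45 FPKM (SD, n = 5) in sham libraries and at 30.4 ± 8.43 FPKM in ligated ones. The 8 striated duct and ionocyte markers summed to 153 to 328 FPKM in sham and to 117 to 315 FPKM in ligated libraries, with overlap. Within this list 1 was higher at an adjusted p under 0.05, against 56.8% of all genes, and 3 were lower, against 3.35%. Krt7 (log2 fold change 1.05, adjusted p = 0.038 by limma) alone was at 187 FPKM in ligated 4, and Tfcp2l1 was at -1.37 (adjusted p = 0.0327). After median-ratio scaling 0 were higher, against 15% of all genes, and 3 lower, against 16.1%. The 6 convoluted tubule markers summed to 11541 to 25319 FPKM in sham and 1600 to 14597 FPKM in ligated libraries. The 7 macrophage markers summed to 117 to 538 FPKM in sham and 1032 to 2048 FPKM in ligated libraries, and the 6 fibroblast markers to 89.1 to 198 and to 939.8 to 4344 FPKM. The part of these cells and tissues in the values of the members, Cox6a2 included, and of Cox8b, Cox7a1 and Ndufa4l2 was not tested.

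**Figure D4:**
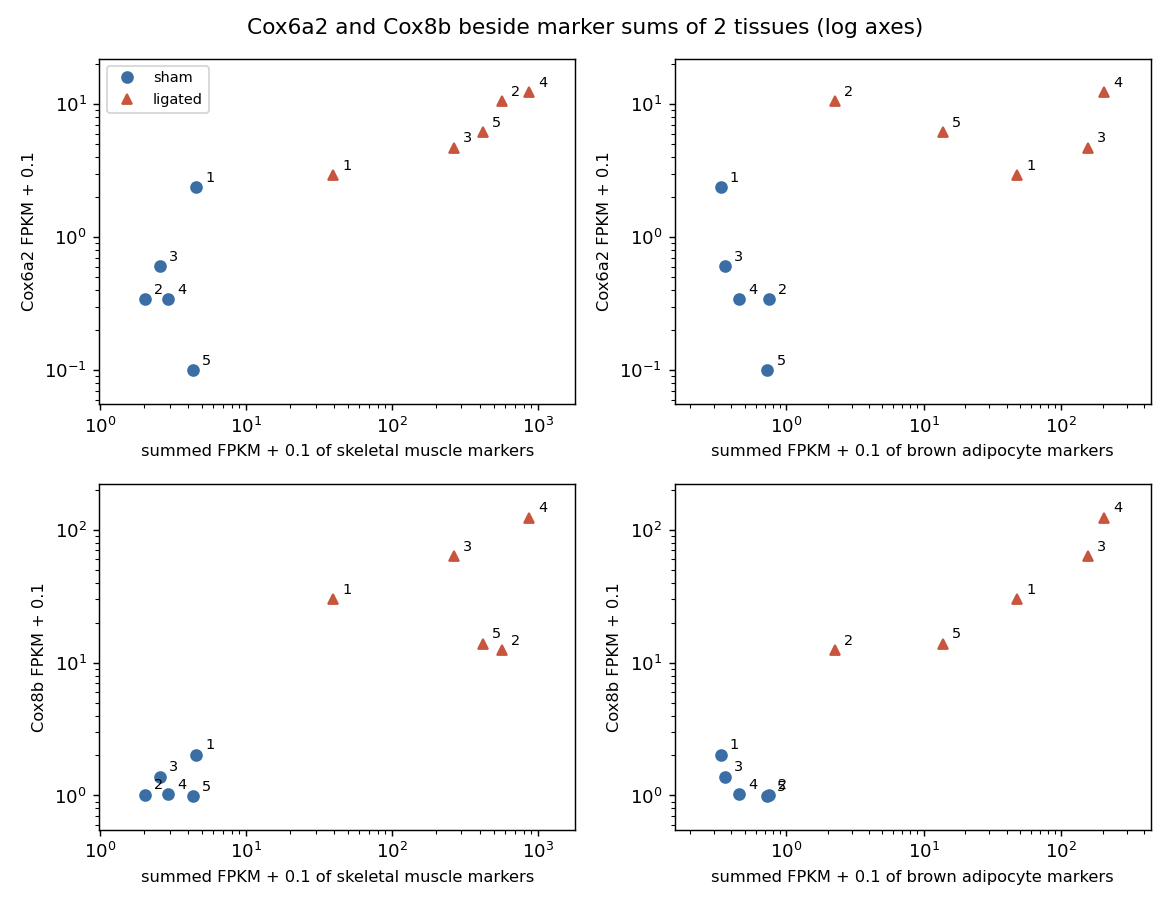
Cox6a2 (top) and Cox8b (bottom), as FPKM plus 0.1, against the summed FPKM plus 0.1 of skeletal muscle markers (left) and brown adipocyte markers (right), all on log axes, with library numbers. In the 5 ligated libraries Cox6a2 follows the order of the muscle sum and Cox8b the order of the brown adipocyte sum.

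Balance within the chain was described with each member set against the median member of its own library, a measure added after the values were seen. On this scale 39 members overlapped between the groups. In 2 of the 41 members the ligated libraries all lay below the sham libraries, a share near the 4.99% of all genes on the same measure. In 0 members they all lay above, against 6.5%. Ndufb9 lay 0.17 to 0.49 below the median member in sham and 0.80 to 0.99 below it in ligated libraries, on the log2 scale. Cox8a lay 2.70 to 3.09 above it in sham and 2.42 to 2.63 above it in ligated libraries. Sdhd had the largest difference upward after Cox6a2, 0.31, and its groups overlapped.

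The summed level of the members was 2365 to 3262 FPKM in sham and 2332 to 3808 FPKM in ligated libraries, with overlap. As a share of the library's FPKM sum it was 0.391% to 0.624% in sham and 0.692% to 1.06% in ligated libraries, without overlap, while the library sums themselves were lower in the ligated libraries. Complex IV made up the largest summed level, with a median of 1086 FPKM in sham and 1284 FPKM in ligated libraries. The sum of complex IV was 1.82 to 2.39 times that of complex I in sham and 1.80 to 2.20 times in ligated libraries.

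The other genes of the pathway were described by lists. Of the subunits outside the members, those higher at an adjusted p under 0.05 as deposited were 3 of 18 for complex I, 1 of 4 for complex III and cytochrome c, 1 of 3 for complex IV and 2 of 11 for complex V, against 56.8% of all genes, and 0 were lower in each. Their median log2 fold changes were 0.26, 0.40, 0.33 and 0.17, each below the 0.53 of all genes. The most abundant of each, none of which passed the test, were Ndufb11 (log2 fold change 0.04 ± 0.18, adjusted p = 0.859 by limma), Uqcr10 (0.54 ± 0.24, adjusted p = 0.0663), Cox6b1 (0.33 ± 0.21, adjusted p = 0.197) and Atp5d (0.14 ± 0.18, adjusted p = 0.499). Cycs, which encodes cytochrome c, was among those that passed (0.53, adjusted p = 0.0307). After median-ratio scaling all of these lists had medians below 0, from -0.47 to -0.24, and 0 genes were higher. Those lower were then 5 of 18 for complex I, 0 of 4 for complex III and cytochrome c, 1 of 3 for complex IV and 5 of 11 for complex V, against 16.1% of all genes. Ndufb11 was among them (-0.61, adjusted p = 0.0308), and Cycs was at -0.10 (adjusted p = 0.718).

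The 13 subunits encoded in mitochondrial DNA had a median of 0.37. At an unadjusted p under 0.05, 2 were higher, against 62.1% of all genes, and 0 were lower. At an adjusted p under 0.05, 1 was higher, against 56.8% of all genes, and 0 were lower. This was mt-Nd3, a core membrane subunit of complex I, at 9.77, 10.4, 1.49, 9.97 and 6.20 FPKM in sham and 20.03, 11.1, 12.2, 18.6 and 12.8 FPKM in ligated libraries (1.05 ± 0.39, adjusted p = 0.038 by limma; 0.48, adjusted p = 0.354 after scaling). The summed mitochondrially encoded level was 3.37 to 5.96 times the nuclear-encoded sum in sham and 3.99 to 6.60 times in ligated libraries, with overlap. These levels are uncertain, since the genome holds nuclear copies of mitochondrial genes, and neighbouring genes were listed far apart, with mt-Co1 at 4440 ± 886 FPKM and mt-Co2 at 31.6 ± 6.40 FPKM in sham glands.

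Genes that build, regulate or feed the chain had medians of 0.34 to 0.49 as deposited, also below that of all genes, and differences between the lists were not tested. Assembly factors of complex I were higher in 4 of 12 tested and those of complexes II to V in 9 of 23, with 0 lower and medians of 0.37 and 0.39, where 56.8% of all genes were higher. After median-ratio scaling 1 of 12 was higher and 0 lower, and 1 of 23 higher and 1 lower, against 15% higher and 16.1% lower of all genes. Ndufaf8, the most abundant of the complex I factors, was at 0.11 ± 0.25 (adjusted p = 0.703 by limma) as deposited and at -0.48 after scaling. The most abundant of the other factors was Coa3, which acts in complex IV translation, at 27.4 ± 4.17 FPKM (SD, n = 5) in sham libraries and at 39.1 ± 5.49 FPKM in ligated ones (0.50 ± 0.14, adjusted p = 0.0129 by limma; -0.14 after scaling). Regulators of mitochondrial gene expression were higher in 9 of 14 tested (64.3%, against 56.8% of all genes) and lower in 0, with a median of 0.48. The scaled values instead had 0 higher, against 15% of all genes, and 4 lower, against 16.1%, with a median of -0.05. The 9 higher as deposited included Nrf1 (0.69, adjusted p = 0.00311), Gabpa (0.90, adjusted p = 0.0055), which encodes the DNA-binding subunit of GABP, and Tfam (0.76, adjusted p = 0.0109), the packaging factor of mitochondrial DNA. After median-ratio scaling these 3 were at 0.23, 0.36 and 0.23, and none passed the test.

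The regulators also held members on the other side of 0. Esrrg, a nuclear receptor of oxidative tissues and the most abundant of the list, was at 30.9 ± 5.41 FPKM (SD, n = 5) in sham libraries and at 23.5 ± 9.79 FPKM in ligated ones (-0.46 ± 0.27, adjusted p = 0.155 by limma), and at -1.09 (adjusted p = 0.0255) after scaling. Ppargc1a, a coactivator that drives mitochondrial biogenesis, was at -0.25 (adjusted p = 0.0972 by limma) as deposited and at -0.70 (adjusted p = 0.00217) after scaling. Genes of the citrate cycle and pyruvate dehydrogenase were higher in 8 of 16 (against 56.8% of all genes) and lower in 0, with a median of 0.49. After scaling 0 of these were higher, against 15% of all genes, and 1 lower, against 16.1%, with a median of -0.14. Cs, which encodes citrate synthase, was at 0.75 (adjusted p = 0.00572) as deposited and at 0.11 (adjusted p = 0.652) after scaling. Of 6 mitochondrial carriers and porins, 3 were higher, against 56.8% of all genes, and 0 lower, with a median of 0.34. After scaling 0 were higher, against 15% of all genes, and 2 lower, against 16.1%, with a median of -0.30. Slc25a5, the most abundant nucleotide carrier, was at 223 ± 35.0 FPKM (SD, n = 5) in sham libraries and at 219 ± 38.1 FPKM in ligated ones (-0.03 ± 0.17, adjusted p = 0.88 by limma), and at -0.68 (adjusted p = 0.0198) after scaling.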

How the data were processed

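The authors deposited 1 table of FPKM for 55291 genes, with 1 column per library. The submitters' processing notes name GRCm38 (mm10) as the build; which aligner and counter were used is not given in the sources used here. Per the labels' protocols, column-purified RNA went into libraries of a SMARTer mRNA kit. Low FPKM values multiplied by merged exon lengths (GENCODE M21) fell on whole reads within 0.01 of a read for 98.3% to 98.4% of values below 200 reads, which gave the depths. Intervals from reads would cover counting error only.

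Genes with at least 1 FPKM in 5 of 10 libraries (11856) were fitted on log2(FPKM + 1) with limma 3.58.1 in R 4.3.3 (2 groups, no covariate, mean-variance trend), two-sided, with Benjamini-Hochberg adjustment over all of them. The pseudocount understates changes of low genes. These p-values set the difference between group means against the spread among libraries within a group. Isoform ratios used an exact permutation test of 5 against 5 libraries (scipy 1.17.1). Both were tested on simulated data. Members and lists were chosen with earlier results of these data known. Named genes were the members past both thresholds, the highest and lowest of each complex, the isoform pairs and the most abundant or called gene of each list. A gene that this rule names is not reported here. Ndufs7, Ndufs8, Ndufa10, Ndufa1, Ndufa6, Cycs, Nrf1, Gabpa, Tfam, Ppargc1a and Cs were named after their values were seen. Atp5f1 was not found under that symbol. Alternatives varied the pseudocount, the offset of the ratios, filter, scaling, trend, block and libraries. Positions are those of GENCODE M21, and promoters those of RefSeq on GRCm38.p6.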

Additional observations from a re-analysis of the deposited data

Results flagged for a closer look

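Of 92 groups of 5 libraries checked (each member and each isoform ratio, on a log2 scale, in each condition), 2 held a library far from the others, and chance alone flags about 1 in 20. Cox6c, a small subunit of complex IV, was at 15.2 FPKM in sham 3 and at 27.9 to 34.6 FPKM in the other 4 sham libraries, a gap of 0.734 of the group's range on the log2(FPKM + 1) scale and of 0.654 on the FPKM scale, where it stays under the limit of 0.71 that was used. The log2 ratio of Ndufa4l2 to Ndufa4 was lowest in sham 2, with a gap of 0.831 of the range of the sham libraries.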

How the results depend on the processing

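Scaling decided the direction of the ubiquitous subunits. The median log2 fold change of the members, 0.25 as deposited, was -0.39 with median-ratio scaling, -0.35 with quantile normalization and 0.78 with all libraries rescaled to equal sums, and 0.17 to 0.33 when 1 library was left out. Relative to the median of all genes it was -0.28, -0.37 to -0.18 with 1 library left out (-0.18 without ligated 2), -0.12 without the 4 libraries with parotid transcripts, where the median of the members was 0.44, and 0.0714 with no filter. Members higher at an adjusted p under 0.05 numbered 6 as deposited, 1 with median-ratio scaling, 1 with quantile normalization, 37 with equal sums and 2 with no filter. Members lower numbered 5 with median-ratio scaling and 2 with quantile normalization. At this threshold the share of all genes is not given with quantile normalization, no filter, a block or libraries left out. With the fold threshold, the 1 higher member became 0 with a filter of 5 FPKM, which leaves Cox6a2 untested, and 2 with equal sums, and stayed 1 with any 1 library left out. All genes higher with the fold threshold numbered 1166 with a filter of 5 FPKM, 840 with median-ratio scaling, 730 with quantile normalization, 5464 with equal sums and 1725 to 2732 with 1 library left out. All genes lower numbered 471, 498 and 65 under those 3 scalings and 102 to 202 with 1 library left out. Of members past the test as deposited or under the scaling named, median-ratio scaling turned Ndufa10 (-0.28), Ndufs7 (-0.33), Ndufs8 (-0.32), Ndufv2 (-0.20), Sdhd (-0.042), Ndufa6 (-0.50) and Atp5c1 (-0.39), quantile normalization turned Ndufa10 (-0.23), Ndufs7 (-0.24), Ndufs8 (-0.24), Ndufv2 (-0.11) and Ndufa6 (-0.42), and equal sums turned Cox8a (0.50), with Ndufb9 also above 0 (0.29) though past neither test. Counting members that passed no test too, 1 of 41 lay above 0 with median-ratio scaling, 2 with quantile normalization and all 41 with equal sums. The cause was not tested.

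Leaving out 1 library moved the count of members higher at an adjusted p under 0.05 between 1 and 8. It fell to 1 without sham 2, sham 3 or ligated 4, to 2 without ligated 1, 3 or 5, and to 3 without sham 1. The ratio difference was 3.06 to 4.31 for Cox6a2/Cox6a1, 0.93 to 2.12 for Cox7a1/Cox7a2, 4.40 to 5.13 for Cox8b/Cox8a, -0.25 to 0.33 for Cox4i2/Cox4i1 and 1.57 to 2.06 for Ndufa4l2/Ndufa4. After the data were seen, libraries with parotid transcripts (sham 1, ligated 2, 3 and 5) or lymph node transcripts (sham 1, ligated 1, 2 and 3) were left out, which left 2 members higher without the first and 3 without the second, and 79 genes lower without the first. The ratio differences were then 3.97 and 4.57 for Cox6a2/Cox6a1, 5.71 and 5.19 for Cox8b/Cox8a, and 1.76 and 2.27 for Ndufa4l2/Ndufa4, each at an adjusted p of 0.167 by exact permutation, where 4 sham and 2 ligated libraries cannot reach the threshold.

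With the replicate number as a block, 2 members were higher at an adjusted p under 0.05. Under the block, by sign flips within numbered pairs, ratio differences of 3.64 (Cox6a2/Cox6a1, adjusted p = 0.208), 4.80 (Cox8b/Cox8a, adjusted p = 0.156) and 1.91 (Ndufa4l2/Ndufa4, adjusted p = 0.156) did not pass, by an exact test whose smallest p is 0.0625. Same-numbered libraries had correlations of -0.38 to 0.58 in their deviations from the group means, and only sham 4 and 5 matched their own number best, so the numbers were not taken to pair the mice.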
